A study of Danio rerio with 4 samples.

Results

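PacBio loci that carried a single transcript were described in zebrafish (Danio rerio) embryos with and without α-amanitin. Long-read transcripts in the deposited expression table have identifiers made of a locus number and an isoform number (PB.locus.isoform), and a locus was taken when its number had exactly 1 row. This rule used the identifiers alone and no measured value. It found 7987 loci, which are 71.4% of the 11192 PacBio loci and 48.0% of the 16639 PacBio transcripts. The table held 32575 transcripts in all, of which 15936 were RefSeq transcripts.

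The table has 1 value per transcript for controls and 1 for α-amanitin, here called the control and the treated column, and no replicates. By name the columns belong to the untreated and the α-amanitin groups, whose long-read libraries were each made from polyadenylated RNA of a pool of 15 wild-type embryos (AB, TAB14 or TAB5 parents; which of these went into a pool is not given in the labels). The treated embryos had been injected during the first cleavages with 0.2 nmol of α-amanitin, and the control embryos were untreated, not mock-injected as far as the labels say. Both groups are labelled 6 hours post fertilization (hpf), but the source name of the treated sample reads 256-cell and that of the untreated sample epiboly, so treatment and stage cannot be told apart. The remaining pair of samples, short-read libraries of untreated embryos at 2.5 and 5.25 hpf, has no files used here. Which reads were quantified for the table is not stated, so the values below describe its columns.

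An early zebrafish embryo runs on RNA that the mother loaded into the egg. Transcription from the embryo's own genome starts in bulk at the mid-blastula transition, and maternal RNA is cleared around the same time. In pooled whole embryos, fewer cells of a type and less RNA per cell cannot be told apart. α-Amanitin binds RNA polymerase II and blocks its elongation, so a treated embryo keeps maternal RNA and makes little new mRNA. A locus represented by 1 long-read transcript can be a gene with 1 isoform in the embryo, a gene read too seldom for others to appear, or a fragment. The identifiers do not separate these cases.

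The loci had wide and unequal levels. In the control column the median was 8.12 TPM (transcript abundance scaled for length and to a fixed column total), with quartiles of 2.21 and 24.4 TPM. In the treated column the median was 11.2 TPM, with quartiles of 2.83 and 30.3 TPM. A level of at least 1 TPM was reached by 6693 loci (83.8%; all transcripts 70.1%) in the control column and by 6735 (84.3%; all transcripts 67.5%) in the treated one. In both columns at once, 6063 loci (75.9%) reached it, against 57.8% of all transcripts. Another 622 loci (7.79%) stayed under it in both, against 20.2% of all transcripts. The loci together took 35.6% of the TPM of the control column and 31.6% of that of the treated column.

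A few loci held much of this. In the control column 65 loci held 50% of the group's TPM, while in the treated column it took 219 loci. For the whole table the matching counts were 522 (control) and 1244 (treated) transcripts. The smaller count on the control side was thus not particular to these loci. Of the 40 transcripts in the table with at least 1000 TPM in both columns, 28 were single-transcript loci, 4 came from loci with 2 or more transcripts and 8 were RefSeq transcripts. Among these 28 loci, 20 differed by less than 2-fold between the columns, 7 were higher in the control column and 1 was lower. A limit set in both columns by itself leaves out loci with large ratios. Among the 50 loci with at least 1000 TPM in either column, 20 were at least 2-fold higher and 6 at least 2-fold lower. PB.5321.1 was the highest locus in both columns, at 20988 TPM in the control column and 17567 TPM in the treated column. PB.10849.1 was also at nearly the same level in both, with 10357 TPM in the control column and 9814 TPM in the treated column. PB.7876.1 stood at 9280 TPM in the control column and 6173 TPM in the treated column, again less than 2-fold apart. The other leading loci were less even. PB.10847.1 stood at 12491 TPM in the control column against 5412 TPM, and PB.11767.1 at 18950 TPM against 2969 TPM. PB.7487.1 was the leading locus in the opposite direction, with 2577 TPM in the control column and 13420 TPM in the treated column. These loci have no gene name in the files, so what they encode is not given here.

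**Figure D1:**
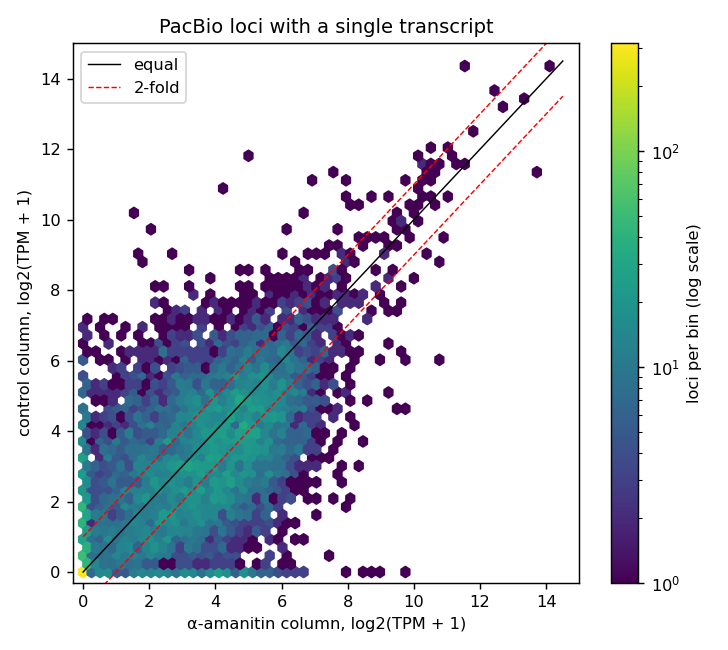
Level of each of the 7987 single-transcript loci in the treated column (x axis) and the control column (y axis), both as log2(TPM + 1), with colour for the number of loci per bin on a log scale. Loci spread well beyond the dashed 2-fold lines, and of the 28 loci with at least 1000 TPM in both columns 20 lie between those lines. That limit by itself leaves out loci with large ratios.

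The difference between the columns was expressed as the log2 ratio of (control TPM + 1) to (α-amanitin TPM + 1), which understates differences of low loci. The median log2 ratio was −0.19, with quartiles of −1.42 and 0.86 and an SD over loci of 1.89. The central 90% of loci ran from −3.18 to 3.00, and the extremes were −9.74 and 8.66. Toward the control column, 1831 loci (22.9%; Wilson 95% interval 22.0 to 23.9) were past 2-fold, where the share among all transcripts was 21.8%. A further 2632 loci (33.0%; 31.9 to 34.0) were past 2-fold toward the treated column, against 29.3% of all transcripts. The remaining 3524 loci (44.1%) lay within 2-fold, against 48.9% of all transcripts. Counted over all entries, both shares past 2-fold are thus near those of the whole table. Entries under 1 TPM in both columns, 7.79% of these loci and 20.2% of all transcripts, cannot pass 2-fold with the added 1 TPM. These intervals cover the counting of loci alone, and with 1 value per column no difference has a replicate check.

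Directions depended on which log2 ratio was taken as 0. Transcripts with at least 1 TPM in both columns had a median log2 ratio of −0.47. With that median subtracted from every log2 ratio, the median of the single-transcript loci became 0.28. Then 2440 loci (30.5%) were at least 2-fold higher and 1909 (23.9%) at least 2-fold lower. The subtraction also moved loci at 0 in both columns, which a rescaling of TPM would leave unchanged, so it overstates the move of low loci. The share of higher loci among those past 2-fold moved from 41.0% to 56.1%, and that among all transcripts from 42.7% to 57.1%. Whether more single-transcript loci were higher or lower in the control column was therefore not decided. A common shift leaves their place relative to other transcripts unchanged, but that place depended on which entries were kept. Over all entries the single-transcript median lay below that of all transcripts, at −0.19 against −6.2e-06. With at least 1 TPM in both columns it lay above, at −0.33 against −0.47.

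Over all entries, the shares at 4-fold stayed near those of the table, and at 32-fold they lay below them. Entries under 1 TPM in both columns, 7.79% of these loci and 20.2% of all transcripts, can pass neither limit but are counted in the shares. At least 4-fold higher were 883 loci (11.1%), against 11.5% of all transcripts. At least 4-fold lower were 1249 (15.6%), against 15.2%. Of entries with at least 1 TPM in either column, 883 of 7365 loci and 3738 of 25989 transcripts were at least 4-fold higher. At least 4-fold lower were 1249 and 4965 of the same entries. On this base both 4-fold shares were smaller for the single-transcript loci. At least 32-fold higher were 57 loci (0.714%) against 1.44% of all transcripts, and at least 32-fold lower were 64 loci (0.801%) against 1.26%. Known genes served as a yardstick for these sizes. Their lists were written with earlier results of these data known, so the directions are no independent support. Their values are sums over RefSeq rows, set here against single transcripts. A list of 26 zygotic genes, such as ved and vox, ventral transcriptional repressors, and tbx16, a T-box factor of the mesoderm, had a median log2 ratio of 5.71 in the RefSeq rows, with all 26 past 2-fold toward the control column. A ratio at or above 5.71 was found for 27 single-transcript loci (0.338%) and for 0.740% of all transcripts. A list of 20 maternal genes, such as zar1, a regulator of maternal mRNA in the oocyte, and btg4, an adaptor of mRNA deadenylation, had 18 members in the table, with a median of −2.34. Of these, 13 were at least 2-fold lower and 1 was at least 2-fold higher. Next to 0 were pabpn1l and gtf3ab in the control column (1.85e-06 and 1.34e-06 TPM) and bmp15 in the treated column (8.25e-10 TPM). Values at or next to 0, in either list, can be failed estimates. A ratio at or below −2.34 was found for 919 single-transcript loci (11.5%) and for 11.9% of all transcripts.

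The spread differed between levels. For loci whose higher column lay between 1 and 10 TPM, the SD of the log2 ratio was 1.41 (2230 loci). It was 2.06 between 10 and 100 TPM (4548 loci) and 2.75 between 100 and 1000 TPM (537 loci), and 2.25 at 1000 TPM or more (50 loci). Over all transcripts the SDs in the same classes were larger, at 1.49, 2.38, 3.12 and 3.20. The added 1 TPM compresses low values by construction, so the lowest class is narrowed. The direction varied as well. Between 1 and 10 TPM, 544 loci (24.4%) were at least 2-fold higher and 612 (27.4%) lower, with a median of −0.17. Of all transcripts at that level 31.8% were higher and 25.1% lower, with a median of 0.057. Between 10 and 100 TPM, 1074 loci (23.6%) were at least 2-fold higher and 1819 (40.0%) lower, with a median of −0.54, against 24.0% and 43.7% of all transcripts at that level and a median of −0.67. Between 100 and 1000 TPM the counts were 193 (35.9%) and 195 (36.3%), with a median of 0.11, against 29.8%, 39.7% and −0.29. Among the 50 loci at 1000 TPM or more, 20 (40.0%) were higher and 6 (12.0%) lower, with a median of 0.85, against 43.0%, 24.8% and 0.82. Between 10 and 100 TPM and at 1000 TPM or more, the median and the share of higher loci were thus near those of all transcripts. Between 1 and 10 TPM both lay below those of all transcripts, and between 100 and 1000 TPM both lay above them. At 1000 TPM or more the share of lower loci, 12.0% of 50 loci, was below the 24.8% of all transcripts.

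Single-transcript loci were set beside the 3205 loci with 2 or more transcripts, whose TPM were summed per locus. The summed loci had median levels of 19.2 TPM in the control column and 40.3 TPM in the treated column, both above the medians of the single-transcript loci. Their median log2 ratio was −0.79 against −0.19, with 13.4% at least 2-fold higher and 44.9% at least 2-fold lower. Loci with 2, 3, 4, and 5 or more transcripts had medians of −0.79, −0.86, −0.74 and −0.73, so the difference lay between 1 transcript and more than 1, with no steady change beyond. Levels moved with this difference. Between 1 and 10 TPM the medians were −0.17 (single) and −0.20 (summed), between 10 and 100 TPM they were −0.54 and −0.94, and between 100 and 1000 TPM they were 0.11 and −0.80. Taken transcript by transcript and not by locus, the loci with 2 or more transcripts had a median of −0.15, which lies above that of the single-transcript loci. Keeping transcripts as the unit but only entries with at least 1 TPM in either column turned that difference from −0.036 to 0.27, the order found with summed loci. The order by transcript therefore rested on entries under 1 TPM in both columns. Whether the number of reads behind a locus, and with it the chance of finding further isoforms, takes part in this was not tested.

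**Figure D2:**
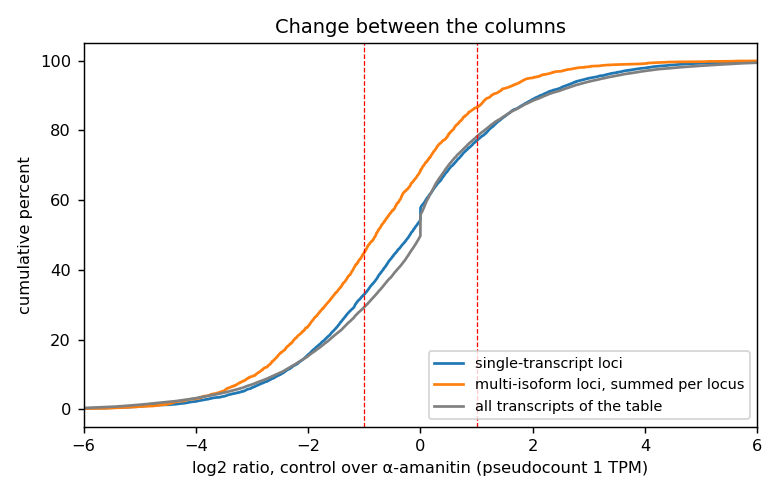
Cumulative percent (y axis) of single-transcript loci, of loci with 2 or more transcripts summed per locus, and of all transcripts, by log2 ratio of control over α-amanitin with a pseudocount of 1 TPM (x axis). The single-transcript curve runs close to that of all transcripts, while the summed loci lie to its left, with medians of −0.19 and −0.79; dashed lines mark 2-fold.

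Loci listed in 1 column only were then counted. A value above 0 in the control column with 0 in the treated column was found for 406 loci (5.08%; 4.62 to 5.59), where the share among all transcripts was 9.51%. The opposite was found for 194 loci (2.43%; 2.11 to 2.79), against 3.94% of all transcripts. Both columns were at 0 for 222 loci (2.78%), against 5.23% of all transcripts, although each of these loci was assembled from long reads. The remaining 7165 loci (89.7%) were above 0 in both, against 81.3% of all transcripts. A listed 0 can be a failed estimate when reads are shared with another transcript, such as the RefSeq transcript of the same gene, and the depth that would set a detection limit is unknown.

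Most of the loci found in 1 column were low there. The 406 control-only loci had a median of 1.96 TPM (quartiles 0.547 and 5.98), with 262 at 1 TPM or more and 63 at 10 TPM or more. The 194 treated-only loci had a median of 5.03 TPM (quartiles 1.13 and 16.3), with 146 at 1 TPM or more and 68 at 10 TPM or more. The control-only loci were more numerous but lower, and the same held for the whole table. Among all transcripts, 3097 were control-only with a median of 0.668 TPM, of which 1348 reached 1 TPM and 332 reached 10 TPM. Another 1285 were treated-only with a median of 4.29 TPM, of which 874 reached 1 TPM and 450 reached 10 TPM. The highest control-only single-transcript loci were PB.1226.1 (142 TPM), PB.2263.1 (126 TPM), PB.5711.1 (114 TPM), PB.6073.1 (107 TPM) and PB.336.1 (103 TPM), all listed at 0 in the treated column. Over all transcripts the highest control-only level was 936 TPM. In the other direction PB.6192.1 stood apart, at 856 TPM in the treated column and 0 in the control column. The next, PB.1874.1, was at 92.8 TPM, followed by PB.2488.1 at 72.6 TPM, PB.8650.1 at 71.7 TPM and PB.880.1 at 60.7 TPM. No transcript of the table that was listed at 0 in the control column had a higher level than PB.6192.1.

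An exact 0 was not the only form of near absence. Another 127 of the 7987 loci in the control column and 113 in the treated column were above 0 but under 0.01 TPM. Over all 32575 transcripts the counts were 548 and 529. With such values counted as absent, 460 loci were found in the control column only and 262 in the treated column only. The matching counts over all transcripts were not computed. By limits chosen after the values had been seen, 159 loci (1.99%) had at least 10 TPM in the control column and under 1 TPM in the treated column, against 3.46% of all transcripts. The reverse held for 223 loci (2.79%), against 3.49%.

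Loci with the most extreme ratios, among those with at least 10 TPM in either column, differed in how low the lower column was. Of the 10 highest ratios, 5 belonged to the control-only loci named above and 5 to loci with at least 1 TPM in the treated column. PB.2309.1 had 1150 TPM in the control column and 1.84 TPM in the treated column, a log2 ratio of 8.66. PB.4815.1 had 3887 TPM and 30.3 TPM, respectively, a log2 ratio of 6.96, and so kept a readily measured level in the treated column. The other members of this group were PB.2531.1, PB.2532.1 and PB.2533.1, whose locus numbers follow each other. Of the 10 lowest ratios, 2 belonged to loci at 0 in the control column (PB.6192.1 and PB.1874.1) and 7 to loci above 0 but under 0.01 TPM there. PB.3730.1 had 0.00356 TPM in the control column and 524 TPM in the treated column (log2 ratio −9.03). PB.9343.1 had 0.00911 TPM and 455 TPM (−8.82). PB.3305.1 had 2.81e-09 TPM and 342 TPM (−8.42), and PB.9563.1 had 4.84e-05 TPM and 258 TPM (−8.01). Only PB.7788.1, at 0.358 TPM and 182 TPM (−7.08), had more than 0.01 TPM in the control column. Of these 10, PB.1764.1, PB.10487.1 and PB.4186.1 had 105, 96.3 and 91.9 TPM in the treated column. The low side of the lowest ratios was thus almost always at or next to 0, and that of the highest ratios was at 0 in 5 loci and at least 1 TPM in 5.

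**Figure D3:**
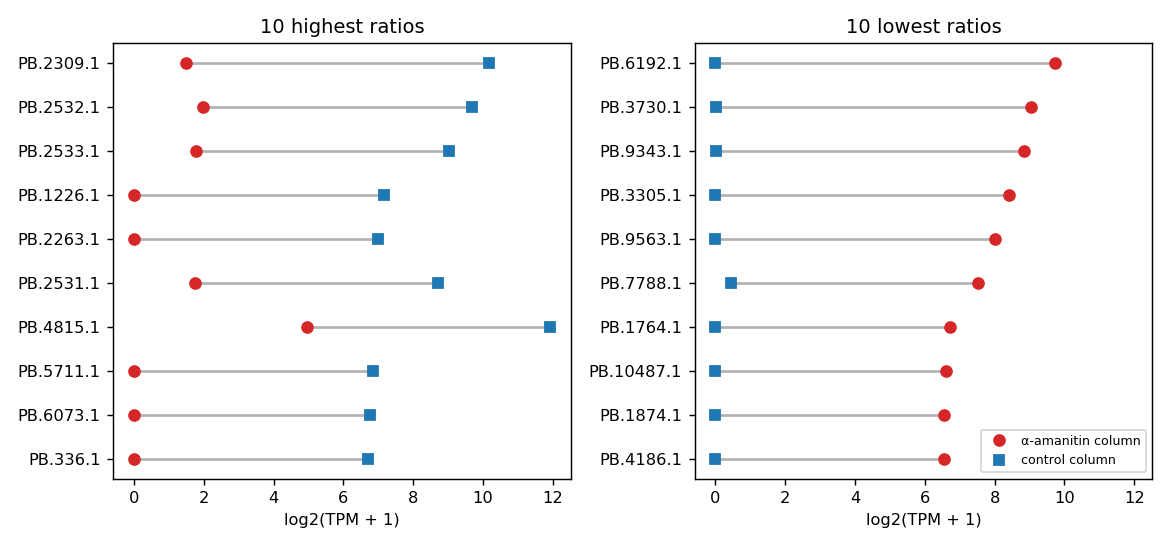
Levels as log2(TPM + 1) (x axis) in the control column (squares) and the treated column (circles) for the 10 single-transcript loci with the highest and the 10 with the lowest log2 ratio among loci of at least 10 TPM in either column. In the right panel 9 of the 10 control values sit at or next to 0, and in the left panel 5 of the 10 treated values do.

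At the other end, 173 loci (2.17%; all transcripts 2.11%) had at least 100 TPM in both columns. The 5 of them with the ratio nearest 0 were PB.3078.1 (112 TPM in the control column and 113 TPM in the treated column), PB.4872.1 (497 and 506 TPM), PB.1381.1 (648 and 631 TPM), PB.4794.1 (107 and 110.0 TPM) and PB.4017.1 (133 and 137 TPM). Across all single-transcript loci the log2(TPM + 1) values of the columns had a Pearson r of 0.59 and a Spearman rho of 0.56. For summed loci with 2 or more transcripts the values were 0.60 and 0.57, and for all transcripts 0.62 and 0.61. These correlations run across transcripts of the same pair of columns, which are not independent replicates.

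What the loci shared beyond the rule was read from their numbers. Of the 7987 rows, 7918 carried isoform number 1, and 69 carried number 2 (60 loci), 3 (8 loci) or 4 (1 locus). At those 69 loci lower isoform numbers have no row in the table, so they are single in the table and not necessarily in the assembly. The other 7918 loci can also have isoforms without a row, which their numbers would not show. The 69 loci had a median log2 ratio of 0.00, with 19 at least 2-fold higher and 16 lower. The numbering ran to 11880, and 688 numbers had no row. Another 4 loci had the same values in both columns as a RefSeq transcript, to the last deposited digit. PB.5060.1 equalled NM_181559 (glula, a glutamine synthetase gene) at 115 TPM in the control column and 27.9 TPM in the treated column. PB.2794.1 equalled NM_001002058 (sae1, a subunit of the SUMO-activating enzyme) at 98.8 and 69.8 TPM. PB.10163.1 equalled NM_201015 (ergic3, a protein of the endoplasmic reticulum and Golgi) at 22.0 and 17.7 TPM. PB.5837.1 equalled NM_001013534 (zgc:103511) at 0.739 and 1.46 TPM. Equal values do not name these loci, and whether their reads were divided with the RefSeq copy was not tested.

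Neighbouring numbers were compared because, in each library's own table, rows of the same chromosome mostly stood together. Successive rows of loci with a named gene lay on the same chromosome in 98.5% (untreated) and 98.6% (α-amanitin) of pairs, by the gene table of assembly GRCz12tu. Whether locus numbers, or positions within a chromosome, follow that row order was not checked. The merged numbering of the expression table is a different one, and its order is not stated. Among 5419 pairs of single-transcript loci with adjacent numbers, the log2 ratios had a Pearson r of 0.091, which was 0.056 at a distance of 2 numbers, −0.018 at 5 and −0.0012 at 100. This is a weak relation across loci of the same columns. Both loci were at least 2-fold higher in 356 adjacent pairs (6.57%) and at least 2-fold lower in 677 (12.5%). In 679 pairs the loci were past 2-fold in opposite directions. These counts depend on the shares of single-transcript loci past 2-fold, 22.9% higher and 33.0% lower.

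Along the numbering, blocks of 1000 numbers had medians from −0.34 to 0.00. Blocks of 100 numbers, a size added after the values had been seen, ranged from −0.92 (numbers 2401 to 2500, 55 loci) to 0.86 (numbers 8801 to 8900, 78 loci). The next highest block after 8801 to 8900 had 0.45 (numbers 10801 to 10900, 66 loci). In block 8801 to 8900, 35 of the 78 loci (44.9%) were at least 2-fold higher and 15 (19.2%) at least 2-fold lower. The 17 loci with 2 or more transcripts in the same block had a median of −0.72, close to their median over the whole table.

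**Figure D4:**
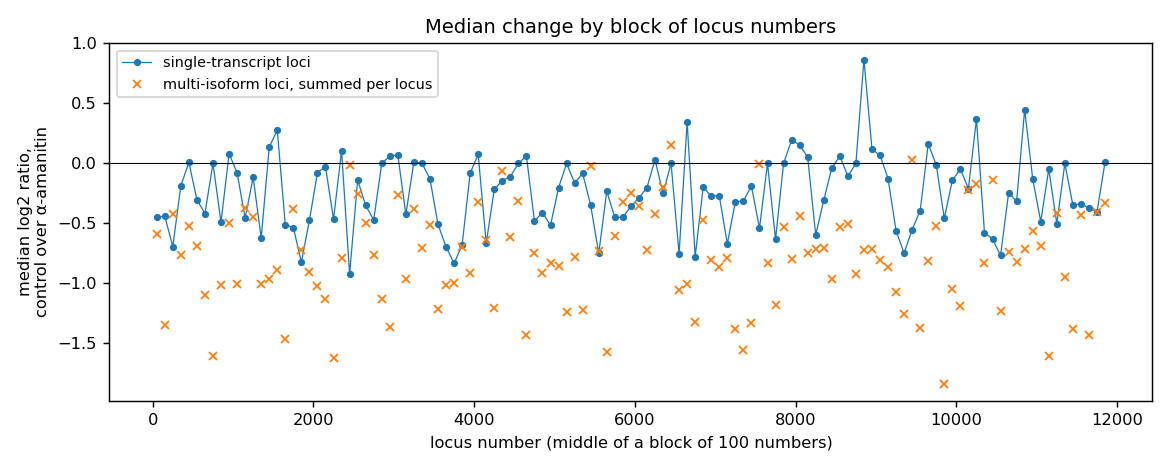
Median log2 ratio of control over α-amanitin (y axis) in blocks of 100 locus numbers (x axis), for single-transcript loci (connected points) and for loci with 2 or more transcripts summed per locus (crosses). The single-transcript median of 0.86 for numbers 8801 to 8900 stands above the other 118 blocks, and the crosses do not share that peak.

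Part of the higher loci of this block stood in an unbroken row. PB.8878.1 to PB.8889.1 were 12 successive locus numbers, each with a single transcript and each past 2-fold toward the control column, the longest such run in the table. Their control levels ran from 17.7 TPM (PB.8878.1) to 201 TPM (PB.8880.1), with a median of 53.1 TPM. Their treated levels ran from 2.88 TPM (PB.8883.1) to 20.1 TPM (PB.8889.1), with a median of 7.18 TPM, and none was at 0. The log2 ratios ran from 1.15 to 4.14. The run was followed by 4 further runs of at least 4 loci, with gaps of at most 10 numbers. From number 8878 to 8924 there were 43 single-transcript loci, of which 35 were at least 2-fold higher and 3 at least 2-fold lower, with a median of 1.92. PB.8923.1 had the highest ratio among them, with 141 TPM in the control column and 1.03 TPM in the treated column (6.13). The other 4 loci of the stretch had 2 or more transcripts; 3 of them were at least 2-fold higher when summed and 1 was at least 2-fold lower. This stretch was singled out after its values had been seen.

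The run with the largest ratios was shorter. PB.2529.1 had 61.5 TPM in the control column and 25.4 TPM in the treated column. PB.2530.1 had 28.2 and 1.59 TPM. PB.2531.1, PB.2532.1 and PB.2533.1 then had 417, 820 and 515.0 TPM in the control column and 2.34, 2.93 and 2.45 TPM in the treated column, with log2 ratios of 6.97, 7.71 and 7.22. Their treated levels were close to each other, their control levels less so, and all 3 are among the 10 highest ratios. In the opposite direction the longest run had 7 loci, PB.10597.1 to PB.10603.1, with control levels from 0.565 to 18.3 TPM, treated levels from 4.35 to 53.5 TPM and log2 ratios from −3.11 to −1.13. Runs of at least 3 loci numbered 56 in the higher direction and 144 in the lower direction. More single-transcript loci were lower (33.0%) than higher (22.9%), and the numbers of runs that these shares alone would give were not computed.

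Loci of the same kind could be given gene names in the long-read tables of each library, which have their own numbering and were not joined to the loci above. A single model was found at 7343 of 9444 loci (77.8%; 76.9 to 78.6) in the untreated library and at 7185 of 9504 loci (75.6%; 74.7 to 76.5) in the treated library. Their median length was 1313 bases (untreated) and 1364 bases (α-amanitin), against 1488 and 1547 bases for models at loci with 2 or more. A reference gene was named at 71.6% and 71.9% of single-model loci, against 84.1% and 85.6% of the other models. Intergenic models (class u) made up 25.8% (24.8 to 26.8) and 26.2% (25.2 to 27.3) of single-model loci, against 14.9% and 14.7% of loci with 2 or more models that held such a model. These intergenic single models had median lengths of 1078 and 1129 bases. Models that matched every intron of a reference transcript (class =) accounted for 36.3% and 37.5% of single-model loci. Among the models of the other loci this share was lower, at 23.8% and 24.4%, but counted by locus 58.3% and 59.6% of them held such a model, so the order depended on whether models or loci were counted. Models near the end of a reference gene (class p) made up 3.04% and 3.12% of single models, against 0.259% and 0.203% of the others, and models on the opposite strand (class x) 2.11% and 2.51%, against 0.684% and 0.507%. For classes u, =, p and x the intervals of the compared sets did not overlap in either library. Models of the same locus are not independent, so intervals over models at loci with 2 or more can be too narrow. Classes p and x were compared as shares of models only, and their shares by locus were not computed.

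**Figure D5:**
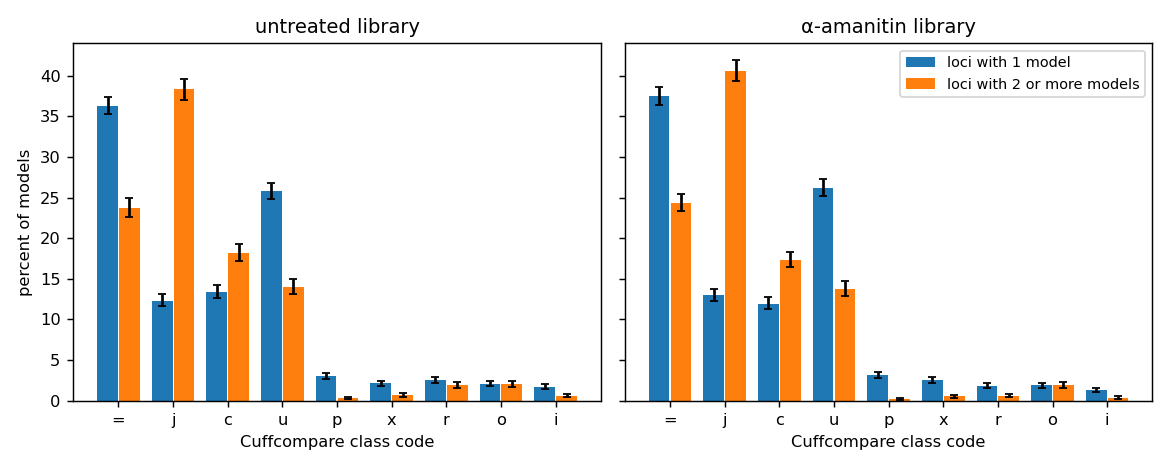
Percent of models (y axis) in each Cuffcompare class (x axis; classes e and s not drawn) at loci with 1 model and at loci with 2 or more models, for the untreated library (left) and the treated library (right), with Wilson 95% intervals. As shares of models, class = and class u are larger at loci with 1 model, and class j is smaller, at 12.3% and 13.0%, in both libraries. Loci were grouped by their number of models, so the class shares of models, that of class j included, are not independent of the grouping. Counted by locus, the order for class = is the opposite, with 36.3% and 37.5% against 58.3% and 59.6%.

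Known early genes gave names to a few of these loci. In the untreated library 3 of 26 zygotic genes had a model, each the only model at its locus. These were bambia, a decoy receptor of BMP signalling, cyp26a1, an enzyme that degrades retinoic acid, and wnt8a, a Wnt ligand. In the treated library 5 had a model and 3 had it at a single-model locus: bambia, foxi1, a forkhead factor of the ectoderm, and ndr1, a Nodal ligand. The ndr1 model lay on the strand opposite to the gene (class x). Of 20 maternal genes, 18 had a model in the untreated library and 6 of them a single-model locus. The 6 were btg4, zar1, bmp15, an oocyte growth factor, mos, a kinase of meiotic arrest, celf1, an RNA-binding protein, and birc5b, a survivin paralog of the mitotic chromosomal passenger complex. In the treated library 19 had a model and 8 a single-model locus. Zar1, bmp15, mos and celf1 were among these 8 as well, whereas btg4 (2 models) and birc5b (3 models) were at loci with several models there. Over all genes, 4699 were named at single-model loci alone in the untreated library and 4620 in the treated library. The sets shared 2887 genes, which are 61.4% of the first and 62.5% of the second. Of the untreated set, 901 genes had a locus with 2 or more models in the treated library and 911 had no model there. Whether a gene was named at single-model loci alone thus differed between the libraries for many genes. Such a gene can still have several models, as celf1 had 2 in each library, each at its own locus.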

How the data were processed

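The deposited expression table holds log2(TPM + 1) values. This was read from the values, since 2 to the power of a deposited value, minus 1, sums to 1000000 in each column. The submitters' processing notes name kallisto and the GRCz10 genome without a role, and which reads were quantified is not given in the sources used here. Depth is unknown, since TPM keep none. The deposited long-read tables list models that the authors assembled with IsoSeq, mapped with GMAP and compared with a reference by Cuffcompare, per the series design text. Their FPKM and coverage columns were 0 and were not used. Both value columns of the expression table were used.

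Loci were found by identifier. The log2 ratio used a pseudocount of 1 TPM and a threshold of 2-fold. With 1 value per group no test was made. Wilson 95% intervals of shares cover counting error and no biological spread. Named loci are the 10 highest and 10 lowest ratios (10 TPM or more in either column), the 5 highest in each column, the 5 highest listed in 1 column only (each way), and the 5 nearest a ratio of 0 with at least 100 TPM in both; neighbouring runs and loci with equal values were added after the values were seen. The members, gene lists and rules were chosen with earlier results of these data known. Symbols came from the long-read tables and a RefSeq gene table (GRCz12tu) and matched 15608 of 15936 RefSeq rows (97.9%). Gene values are sums over RefSeq rows. Sequences of PacBio transcripts were not used here. The counting code was checked on simulated data. Python 3.11.15, numpy 2.4.6, pandas 2.3.3, scipy 1.17.1 and matplotlib 3.10.9 were used.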

Additional observations from a re-analysis of the deposited data

How the results depend on the processing

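No paired analysis was possible because each group has 1 value per locus and the labels give no replicate numbers. Of 37 values under alternatives, 17 stayed within 1.5 times the reported count or within the binomial interval of the reported value. Subtracting the median of transcripts with at least 1 TPM in both columns from every log2 ratio reversed the median of single-transcript loci, to 0.28, by construction. Keeping only loci with at least 1 TPM in either column moved it to −0.34 and the interquartile range from 2.28 to 2.50. A pseudocount of 0.1 TPM moved that range to 2.81. A 4-fold threshold left 883 loci higher and 1249 lower, since it is stricter. Requiring at least 1 TPM left 262 control-only loci.

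The median of single-transcript loci minus that of the transcripts of other loci, −0.036, reversed to 0.61 with those loci summed and to 0.27 with at least 1 TPM in either column. Summed and within levels chosen after the data were seen, it was 0.028 (1 to 10 TPM), 0.41 (10 to 100 TPM) and 1.06 (100 TPM or more). The cause was not tested.

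Long-read models of at least 500 bases moved the class shares of single-model loci in the treated library to 41.9% (=), 14.7% (j), 10.2% (c) and 24.5% (u), and in the untreated library to 41.3%, 13.9%, 11.9% and 23.7%. What a locus at 0 could hide is unknown without depth.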
